A study of Drosophila melanogaster with 6 samples.

Results

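The small and inducible heat shock genes were 8 genes of the fruit fly Drosophila melanogaster, chosen by their symbols among the 17457 features of a deposited ovary expression table: the regulator Hsf, the 6 small heat shock genes Hsp22, Hsp23, Hsp26, Hsp27, Hsp67Ba and Hsp67Bc, and the Hsp70 family gene Hsp68. All 8 were found. The polyA RNA of ovaries was sequenced from 6 samples, 3 of them controls and 3 in which Sam-S, the gene for S-adenosylmethionine synthetase, was overexpressed in the germline. Both groups carried the germline driver nanos-gal4. In the overexpression group the driver was crossed to flies with a UASp-Sam-S transgene, and in the control group to flies whose docking site for that transgene was empty. Each of 3 numbered batches held 1 sample of each group, and the labels give no age and no heat or stress treatment.

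Heat shock proteins are chaperones that hold or refold damaged proteins. Heat shock factor, the product of Hsf, binds heat shock elements in their promoters when proteins misfold and switches them on within minutes, releasing an RNA polymerase that is already engaged near the start of the gene. Small heat shock proteins share an alpha-crystallin domain and hold unfolded proteins without using ATP, and proteins of the Hsp70 family then refold them using ATP. In the fly ovary, Hsp26, Hsp27 and the Hsp90 gene Hsp83 are known to be transcribed in the nurse cells without any heat, as part of normal oogenesis, whereas Hsp22, Hsp68 and the Hsp70 genes are mainly known for their response to heat.

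The 6 small heat shock genes lie within 14.2 kb of chromosome arm 3L, between 9371511 and 9385694. Positions were read from the deposited table and are the same for all 8 genes in the Release 6 annotation BDGP6.54. Along the arm they are ordered Hsp67Bc (minus strand), Hsp22 (plus), Hsp26 (minus), Hsp67Ba (minus), Hsp23 (plus) and Hsp27 (plus). Hsp68 lies on 3R (24055080 to 24057310, minus strand) and Hsf on 2R (18130303 to 18134634, minus strand). Hsf has introns, with 7 to 9 exons in its annotated transcripts, while Hsp23, Hsp26, Hsp27, Hsp67Ba, Hsp67Bc and Hsp68 are annotated with 1 exon each. Hsp22 has a transcript of 1 exon and another of 3 exons, and it shares its strand and most of its span with CG4456, an older name of which is Hsp67Bb, so reads in the shared part cannot be assigned to either gene with certainty.

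Levels are in TPM, a scale of transcript abundance that corrects for transcript length and allows genes to be compared within a library. Between 7786 and 7911 features reached 1 TPM in each library, and the sequencing depth is unknown because TPM does not keep it. Sam-S itself was at 483.3 to 512.3 TPM in the controls and at 1443 to 1572 TPM with the transgene. The 6 germline markers summed to between 1648 and 1672 TPM in controls and between 1705 and 1764 TPM with overexpression, and the 6 follicle cell markers to between 9456 and 11951 TPM and between 7779 and 14454 TPM. The germline sum was mostly osk, at 938.6 to 981.3 TPM in controls and 1025 to 1070 TPM with overexpression. The germline markers grk and aub were also higher with overexpression without overlap, while vas, nos and bam overlapped between the groups. The follicle cell sum was mostly Vm26Aa and Vm34Ca. The 4 neuronal markers were all below 1 TPM in every library. Control replicate 3 and overexpression replicate 1 stood apart from the other 4 libraries in the inducible heat shock genes, and results that rest on them are given with and without them.

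The 8 genes spanned more than 3 orders of magnitude. Their order by mean level over the 6 libraries was Hsp26 (1837 TPM), Hsp27 (806.7 TPM), Hsf (140.2 TPM), Hsp23 (39.6 TPM), Hsp22 (28.4 TPM), Hsp68 (6.92 TPM), Hsp67Bc (1.11 TPM) and Hsp67Ba (0.45 TPM). The ranges of Hsp26, Hsp27 and Hsf did not overlap with those of their neighbours in this order. Hsp23 overlapped with Hsp22, and Hsp68, Hsp67Bc and Hsp67Ba each overlapped with the next, so the order within those neighbours is not larger than the spread between libraries. By mean TPM, Hsp26 stood at place 101 and Hsp27 at place 168 of all features in the table.

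**Figure D1:**
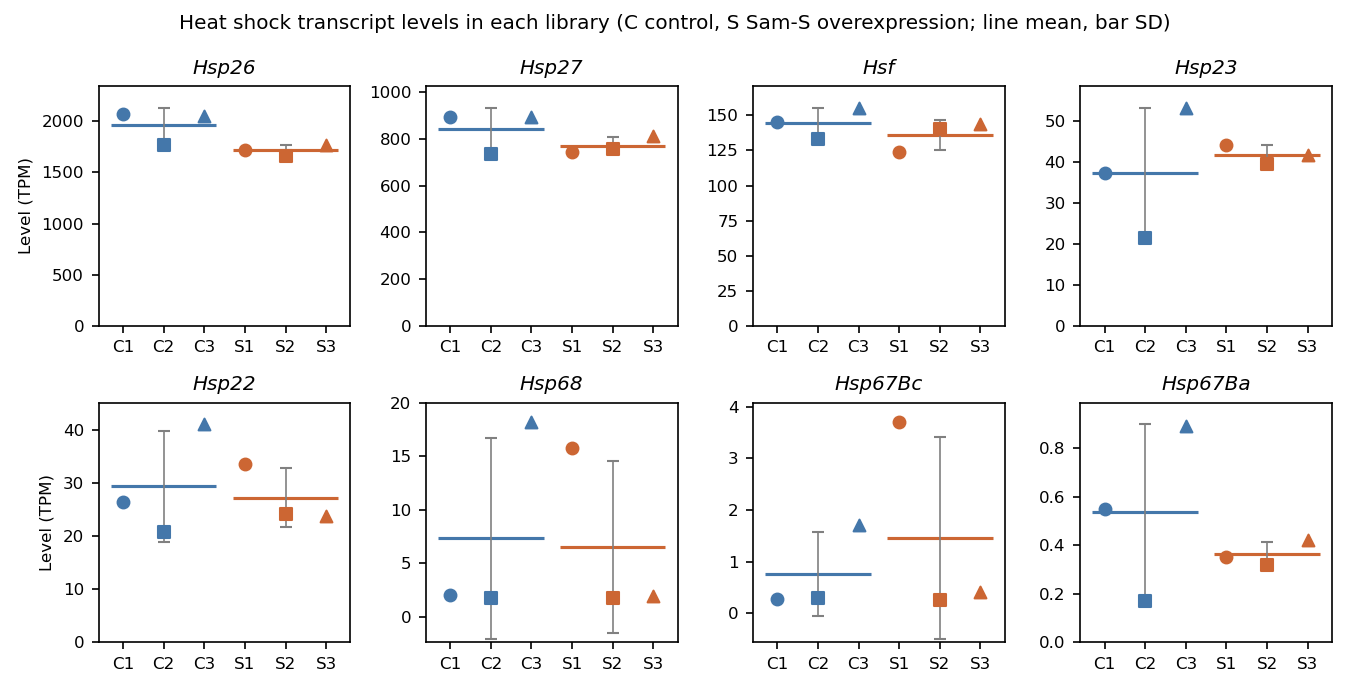
TPM (y axis, linear, a scale of its own for each gene) of each heat shock gene in the 3 control libraries (C1 to C3, blue) and the 3 Sam-S overexpression libraries (S1 to S3, orange); lines are group means, grey bars SD, and marker shapes batches. Hsp26 and Hsp27 vary little between libraries, whereas Hsp68 stands at 18.2 TPM in C3 and 15.8 TPM in S1 and at or below 2.02 TPM in the other 4.

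Sam-S overexpression was compared with control by limma on log2(TPM + 1), keeping every feature whose TPM averaged 1 or more over the 6 libraries. Of the 8 heat shock genes, 7 entered this test, 0 were called changed at an adjusted p under 0.05, and 1, Hsp26, had an unadjusted p under 0.05. Over all 7855 features tested, 22 or 0.280% were called and 6.58% had an unadjusted p under 0.05. In 0 of the 7 genes did the control and overexpression values separate without overlap, against 11.9% of all features tested. The log2 fold change was below 0 for 5 of the 7 genes and for 56.0% of all features, and the median was -0.08 over the 7 genes and -0.01 over all features. By the authors' deposited table, none of the 8 genes had an FDR under 0.05, and 1, again Hsp26, had a p-value under 0.05. Over all 17457 features of that table, 122 had an FDR under 0.05 and 4.24% had a p-value under 0.05. Since the labels do not say whether replicates came from separate crosses, p-values measure the spread between these samples.

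Hsf, which encodes the transcription factor that controls the other members under stress, was expressed in every library at a similar level. Its TPM was 145.2, 133.0 and 154.9 in control replicates 1, 2 and 3 and 124.2, 140.3 and 143.7 in overexpression replicates 1, 2 and 3. The groups overlapped, and the lowest value was that of overexpression replicate 1. The group means were 144.4 ± 11.0 TPM (SD, n = 3) and 136.1 ± 10.4 TPM (SD, n = 3). The log2 fold change of Hsf was -0.09 with a 95% interval from -0.26 to 0.09 (limma, adjusted p = 0.944).

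Hsp26 and Hsp27, the cytosolic and the mainly nuclear small heat shock proteins of the germline, made up nearly all of the small heat shock transcripts. Together they held between 96.8% and 98.3% of the summed TPM of the 6 small heat shock genes in each library. That sum averaged 2871 ± 282.2 TPM (SD, n = 3) for the control group against 2556 ± 83.1 TPM (SD, n = 3) for the overexpression group, and the groups overlapped, as control replicate 2 lay at 2545 TPM. Hsp26 was 2.17 to 2.39 times as abundant as Hsp27 within each library, and that ratio differed less between libraries than either level did.

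Hsp26 (FBgn0001225, 3L, 9376418 to 9377427) was at 2065, 1765 and 2051 TPM in control replicates 1, 2 and 3 and at 1713, 1663 and 1767 TPM in overexpression replicates 1, 2 and 3. Controls 1 and 3 were above every overexpression library, while control 2 lay just under overexpression replicate 3. The means were 1961 ± 169.5 TPM and 1714 ± 52.1 TPM (SD, n = 3 each). The log2 fold change was -0.19 (SE 0.07, 95% interval -0.35 to -0.03), with an unadjusted p of 0.0229 that became 0.602 after adjustment (limma). Hsp26 was lower with overexpression in 3 of 3 batches, by -0.27, -0.09 and -0.22 on the log2 scale in batches 1, 2 and 3. The authors' deposited table gives Hsp26 a log2 fold change of -0.19, a p-value of 0.00875 and an FDR of 0.484.

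Hsp27 (FBgn0001226, 3L, 9384063 to 9385694) was at 894.7, 737.5 and 894.7 TPM in control replicates 1, 2 and 3 and at 743.9, 756.2 and 813.4 TPM in overexpression replicates 1, 2 and 3. As for Hsp26, controls 1 and 3 were the highest libraries, and for Hsp27 control 2 was the lowest. The log2 fold change was -0.12 (95% interval -0.31 to 0.06, limma adjusted p = 0.906). The annotated noncoding gene CR43483 overlaps Hsp27 on the other strand and was at 26.2 to 38.8 TPM; how strand was used in counting is not given in the sources used here.

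Hsp22 and Hsp23, a small heat shock protein of mitochondria and one of the cytosol, were expressed at far lower levels and varied more. Hsp22 (FBgn0001223, 3L, 9372931 to 9374964) was at 26.4, 20.9 and 41.2 TPM in control replicates 1, 2 and 3 and at 33.7, 24.3 and 23.9 TPM in overexpression replicates 1, 2 and 3. The highest libraries were control replicate 3 and overexpression replicate 1, at 1.56 and 1.39 times the next highest library of their group. The means were 29.5 ± 10.5 TPM and 27.3 ± 5.55 TPM (SD, n = 3 each), and the log2 fold change was -0.07 (95% interval -0.61 to 0.46, limma adjusted p = 0.978). CG4456, which overlaps Hsp22, was at 0.75 TPM in control replicate 3, its lowest library, and at 1.97 TPM in overexpression replicate 1, its highest.

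Hsp23 (FBgn0001224, 3L, 9381882 to 9382765) was at 37.4, 21.5 and 53.2 TPM in control replicates 1, 2 and 3 and at 44.3, 39.4 and 41.8 TPM in overexpression replicates 1, 2 and 3. The overexpression libraries lay close together and all within the range of the controls. The SD of Hsp23 was 15.9 TPM among controls and 2.42 TPM with overexpression (n = 3 each), a difference in spread that was not tested. Its log2 fold change was 0.25 (95% interval -0.37 to 0.86, limma adjusted p = 0.948), and control replicate 2 set the sign: without it the log2 fold change was -0.09.

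Hsp67Ba and Hsp67Bc were the lowest of the 8 genes, with means of 0.45 and 1.11 TPM, near the minimum mean of 1 TPM used for testing. Hsp67Bc, whose protein works with the co-chaperone Starvin in clearing misfolded proteins, was at 0.27, 0.30 and 1.70 TPM in control replicates 1, 2 and 3 and at 3.71, 0.25 and 0.42 TPM in overexpression replicates 1, 2 and 3. It was thus highest in overexpression replicate 1 and next highest in control replicate 3, and it passed the minimum mean of 1 TPM through these libraries. The log2 fold change of Hsp67Bc was 0.30 (95% interval -0.91 to 1.52, limma adjusted p = 0.966). It was 0.12 without control replicate 1, 0.13 without control replicate 2, 0.65 without overexpression replicate 2 and 0.56 without overexpression replicate 3. With a pseudocount of 0.1 it was 0.46, and none of these was called. Without control replicate 3 or without overexpression replicate 1, Hsp67Bc fell under the minimum and was not fitted.

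Hsp67Ba was at 0.55, 0.17 and 0.89 TPM in control replicates 1, 2 and 3 and at 0.35, 0.32 and 0.42 TPM in overexpression replicates 1, 2 and 3. It fell below the minimum and was not in the limma fit. The groups overlapped. By exact permutation, two-sided, p was 0.6, where 0.1 is the smallest p that 3 against 3 samples allow. The antisense gene asRNA:CR43481, which overlaps Hsp67Ba, had a higher level of 4.55 to 7.25 TPM, and with the use of strand in counting not given, reads of this pair cannot be told apart with certainty.

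Hsp68, an Hsp70 family chaperone known for its induction by heat, had the largest within-group SD of log2(TPM + 1) of the 7 genes tested. By the ratio of the highest to the lowest library, Hsp67Bc varied more (14.8 against 10.6 for Hsp68). It was at 2.02, 1.78 and 18.2 TPM in control replicates 1, 2 and 3 and at 15.8, 1.72 and 1.97 TPM in overexpression replicates 1, 2 and 3. In each group 1 library stood far above the other 2: control replicate 3 was 9.02 times the next highest control, and overexpression replicate 1 was 8.01 times the next highest overexpression library. The other 4 libraries lay between 1.72 and 2.02 TPM, controls and overexpression alike.

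The group means of Hsp68 were 7.34 ± 9.42 TPM and 6.49 ± 8.05 TPM (SD, n = 3 each), with a log2 fold change of -0.08, a 95% interval from -2.13 to 1.96 and a limma adjusted p of 0.997. The high libraries come from different batches, so the log2 difference was 2.47 in batch 1, -0.03 in batch 2 and -2.69 in batch 3. Leaving out control replicate 3 gave a log2 fold change of 0.83 and leaving out overexpression replicate 1 gave -0.94, neither called. Of the genes annotated on the other strand at this locus, CG6000 was at 63.6 to 76.9 TPM with its lowest value in overexpression replicate 1, and lncRNA:CR44097 was at 0, 0 and 0.74 TPM in control replicates 1, 2 and 3 and at 4.85, 2.50 and 0.70 TPM in overexpression replicates 1, 2 and 3.

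The Hsp70 genes, the main heat-induced chaperones of the fly, had their highest summed level in the same libraries as Hsp68. Their 6 rows are near-identical copies between which reads may be split, as Hsp70Aa was listed at 0 in every library, so their sum is given here. It was 35.0, 30.4 and 172.5 TPM in control replicates 1, 2 and 3 and 112.3, 32.2 and 26.0 TPM in overexpression replicates 1, 2 and 3. Control replicate 3 was 4.93 times the next highest control and overexpression replicate 1 was 3.48 times the next highest library of its group. Of the single rows, Hsp70Bbb differed: it was highest in control replicate 3 (5.58 TPM) but was at 3.12 TPM in overexpression replicate 1 and 3.26 TPM in overexpression replicate 2. The exact two-sided permutation test of the summed level between control and overexpression gave p = 0.6, and 0.6 after adjustment over this test and that of Hsp67Ba.

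**Figure D2:**
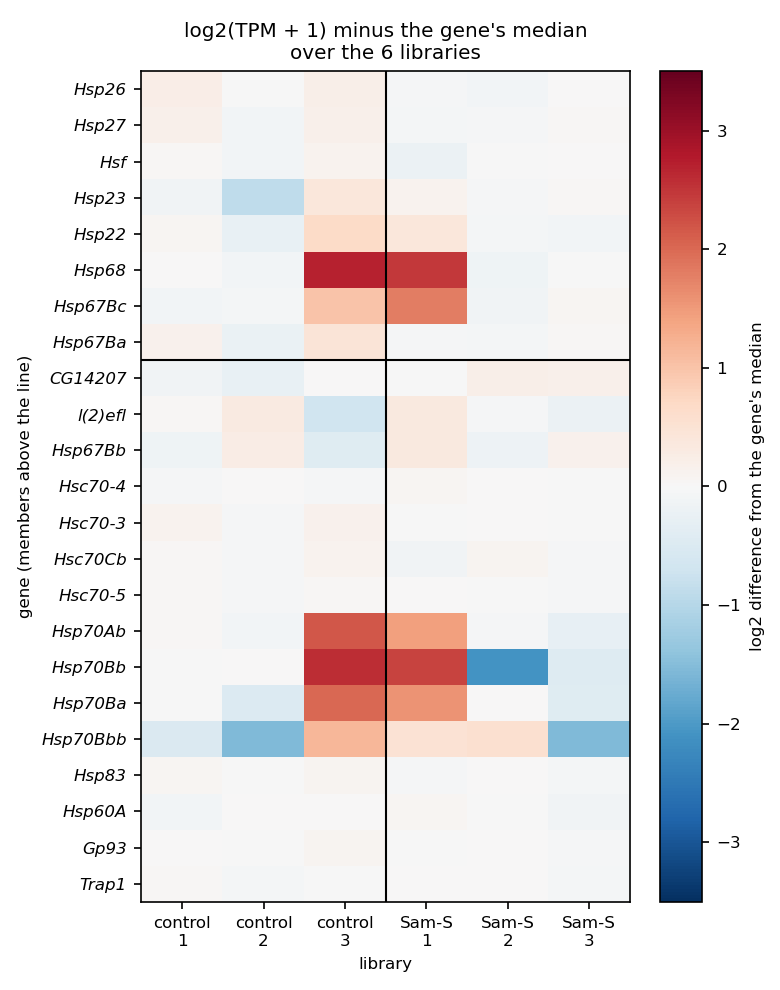
Colour gives log2(TPM + 1) in each library minus the gene's own median over the 6 libraries, for the 8 heat shock genes (above the line) and for the tested genes of the other small heat shock, Hsp70, and Hsp90 and Hsp60 lists. Hsp68, Hsp67Bc and the Hsp70 rows Hsp70Ab, Hsp70Bb and Hsp70Ba are red in control replicate 3 and overexpression replicate 1, Hsp70Bbb is red in control replicate 3 and paler in overexpression replicates 1 and 2, and Hsp26, Hsp27, Hsf, Hsp83 and the tested Hsc70 genes show pale colours throughout.

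Control replicate 3 and overexpression replicate 1 were picked out from the values of the heat shock genes themselves, so what follows is a description. They were the highest libraries for Hsp22, Hsp23, Hsp67Bc and Hsp68, whereas controls 1 and 3 were the highest for Hsf, Hsp26, Hsp27 and Hsp67Ba. For Hsp23 the difference was small: they were 1.42 and 1.06 times the next highest library of their group. Control replicate 3 and overexpression replicate 1 were the highest libraries in 195 of the 7855 features tested (2.48%). In 7 of the 7855 features tested both libraries were at least 2-fold above each of the other 4: Hsp67Bc, Hsp68, Hsp70Ab, Hsp70Ba, Hsp70Bb and the small nucleolar RNA rows snoRNA:Me28S-U3344b and snoRNA:Psi18S-1377c. Of these, Hsp67Bc, Hsp70Ba and both small nucleolar RNA rows are in the tested set only through these libraries. The minimum level itself thus shapes this count. This count was made after the values were seen, and no test was run on it. The abundant chaperone genes Hsp83 and Hsc70-4 were not high in both. Hsp83 was at 3457 TPM in control replicate 3, its highest library, and at 3134 TPM in overexpression replicate 1, below all controls. Hsc70-4 was at 3729 TPM in control replicate 3, below control replicate 2, and at 4003 TPM in overexpression replicate 1, its highest library. Of the 11 co-chaperone genes, 1, stv, had control replicate 3 and overexpression replicate 1 as its highest libraries, as given below. The Hsp40 gene DnaJ-1, a target of heat shock factor, was at 297.7 TPM in control replicate 3, its highest library, and at 227.8 TPM in overexpression replicate 1, its lowest.

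Markers of other cell types did not stand high in both of these libraries. The follicle cell, muscle sheath and haemocyte marker sums were the highest of the overexpression group in overexpression replicate 1 (14454, 189.6 and 6.11 TPM), but the lowest of the control group in control replicate 3 (9456, 129.9 and 3.62 TPM). The haemocyte sum was nearly all Ppn and Pxn, as Hml and NimC1 were at or below 0.07 TPM. Pxn alone went otherwise, with its highest value in overexpression replicate 3 (3.01 TPM) and its lowest control value in control replicate 1 (1.63 TPM). In bulk ovary RNA, more cells that express a gene and more RNA per cell cannot be told apart. The labels give no handling, heat or dissection record that could be set beside these values.

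**Figure D3:**
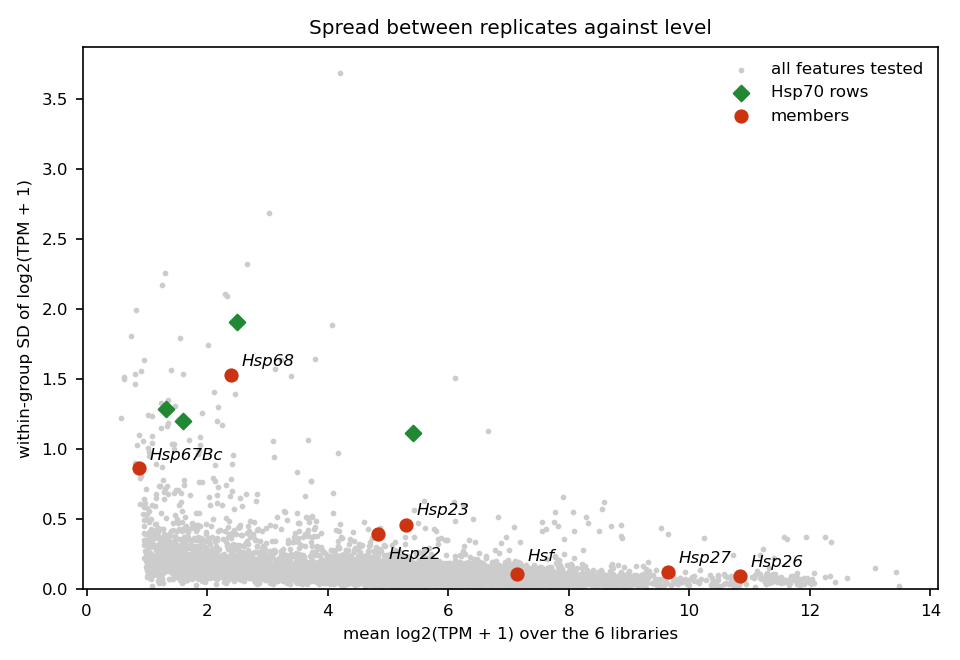
Within-group SD of log2(TPM + 1) (y axis) against the mean log2(TPM + 1) over the 6 libraries (x axis) for each feature tested (grey), with the heat shock genes in red and the tested Hsp70 rows as green diamonds. Hsp26, Hsp27 and Hsf lie among the bulk of features, and Hsp22, Hsp23, Hsp67Bc, Hsp68 and the Hsp70 rows lie above it.

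The spread between replicates was larger for Hsp22, Hsp23, Hsp67Bc and Hsp68 than for Hsp26, Hsp27 and Hsf. For Hsp67Bc and Hsp68 it rests on the same high libraries, so it is not a separate result. For Hsp22 it rests largely on them too: the SE of its log2 fold change was 0.23 with them and 0.12 without them. For Hsp23 control replicate 2, its lowest library at 21.5 TPM, adds to it. Percentiles are over all features tested, not matched for level. The within-group SD of log2(TPM + 1) was 0.10 for Hsp26, 0.12 for Hsp27 and 0.11 for Hsf, at the 50.3, 67.3 and 60.3 percentile of all features tested. It was 0.39 for Hsp22, 0.46 for Hsp23, 0.87 for Hsp67Bc and 1.53 for Hsp68, at the 96.3, 97.5, 99.0 and 99.7 percentile. For the last 4 genes the intervals of the group difference are correspondingly wide.

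With control replicate 3 and overexpression replicate 1 both left out, a choice made after the values were seen, 2 libraries remained in each group. The log2 fold change of Hsp68 was then -0.03 with a 95% interval from -0.52 to 0.46, and that of Hsp22 was 0.03 (-0.24 to 0.31). That of Hsp23 was 0.50 (0.01 to 0.99), with an unadjusted p of 0.0467 that became 0.727 after adjustment (limma). Hsp26 and Hsp27 stood at -0.16 (-0.35 to 0.04) and -0.05 (-0.27 to 0.16), and Hsf at 0.03 (-0.12 to 0.18). Of the 6 heat shock genes that still passed the minimum, 0 were called by limma and 1, Hsp23, had an unadjusted p under 0.05, against 0.369% called and 6.80% at that unadjusted p over all features in the same fit.

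**Figure D4:**
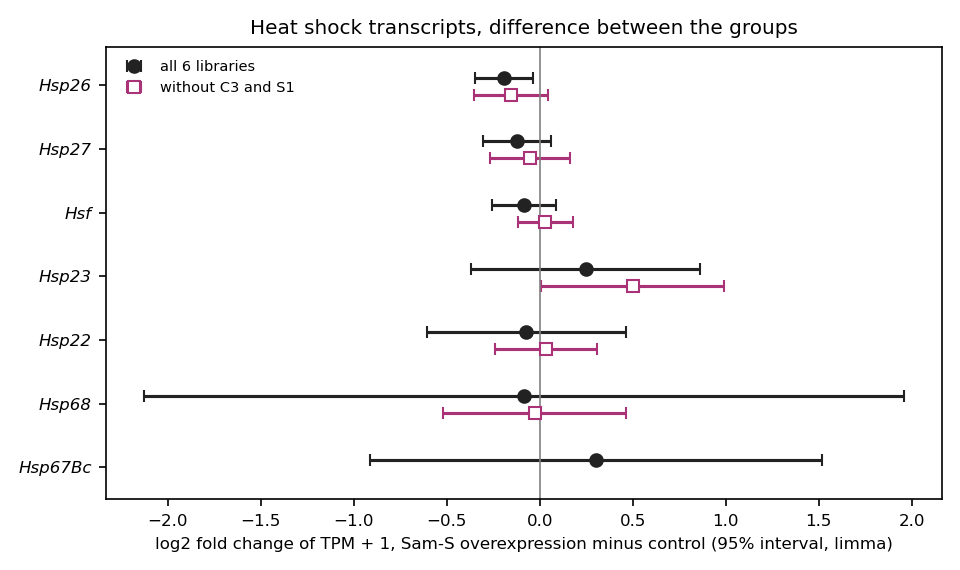
Log2 fold change of TPM + 1 between Sam-S overexpression and control with its 95% interval (x axis, limma) for the 7 heat shock genes tested, with all 6 libraries (black circles) and without control replicate 3 and overexpression replicate 1 (open purple squares; Hsp67Bc was then under the minimum level). The interval of Hsp68 narrows from -2.13 to 1.96 with all libraries to -0.52 to 0.46 without these libraries. They were picked for their high heat shock values, so the narrowing follows from that choice and is not a test.

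Other genes of the heat shock and chaperone network were examined as 6 lists of 61 genes, all found in the table, of which 47 were tested, 1 rose, 1 fell and 45 were not called, beside 0.280% of all features called. The median log2 fold change of the 47 was -0.04, against -0.01 over all features. Both called genes belong to the 11 Hsc70 and Hsp90 co-chaperones and were known from earlier results of these data. HIP, which stabilises Hsc70 bound to its client, rose by 0.72 on the log2 scale (limma, adjusted p = 0.00452), and its related gene HIP-R changed by -0.71 (limma, adjusted p = 0.000989). HIP averaged 134.1 TPM in controls and 220.8 TPM with overexpression, and HIP-R 277.5 and 168.8 TPM. Both lie on the X chromosome, HIP-R starting at 3789969 and HIP at 3799150. How reads shared by related genes were counted is not given, and a shift of reads between HIP and HIP-R was not tested. The most abundant co-chaperones were p23, an Hsp90 partner listed under CG16817, and the Hsp40 gene Droj2, with log2 fold changes of -0.02 and -0.07, neither called.

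Of the 36 genes tested in the other 5 lists, 0 were called by limma and 6 had an unadjusted p under 0.05, against 6.58% of all features. In the Hsp70 family 8 of 12 genes were tested; Hsc70-4, the major constitutive Hsp70 of the cytosol, was at 3817 TPM on average with a log2 fold change of 0.05, and Hsc70-3, its counterpart in the endoplasmic reticulum, at 768.4 TPM with -0.09. In the Hsp90 and Hsp60 list 4 of 7 were tested, led by Hsp83 at 3265 TPM (log2 fold change -0.09) and the mitochondrial chaperonin gene Hsp60A at 545.2 TPM (0.00). Of the other small heat shock genes and CG4456, 3 of 6 were tested. CG14207, an alpha-crystallin family gene, averaged 74.1 ± 6.50 TPM among controls and 88.2 ± 6.73 TPM among overexpression libraries (SD, n = 3 each; log2 fold change 0.25, limma adjusted p = 0.549), and l(2)efl was at 6.29 TPM on average (0.14).

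The 13 factors of heat shock promoters, such as the pausing complex NELF and the elongation factors Spt4, Spt5 and Spt6, were all tested. The most abundant were spt4 (169.9 TPM, log2 fold change -0.12) and CG5446 (118.2 TPM, -0.06). Trl, which encodes the GAGA factor that opens chromatin at heat shock promoters, was at 73.0 to 83.0 TPM across the libraries, with a log2 fold change of 0.02. Of 12 genes of other stress responses 8 were tested, led by the glutathione transferase gene GstD1 (1328 TPM, -0.16) and crc, the fly ATF4 gene (495.5 TPM, 0.02). The stress-induced peptide genes TotA, TotC, TotM and TotX were at or below 0.27 TPM in every library, too low to compare the libraries.

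The features whose profile over the 6 libraries was most like that of a heat shock gene were ranked by Pearson's r of log2(TPM + 1), as a description. For Hsp68 they were snoRNA:Me28S-U3344b (r = 0.997), Hsp70Ab (0.976) and Hsp70Ba (0.976), values that rest on the same high libraries in each case. For Hsp22 they were hb (0.981), CG9485 (0.975) and Hsp70Ba (0.974). The most like feature was CG6345 for Hsp23 (0.979), CG31121 for Hsp67Bc (0.984), CG17684 for Hsp26 (0.990), bgm for Hsp27 (0.999) and CG3223 for Hsf (0.998). Over these 6 libraries, 374 features exceeded 0.95 with Hsf, 48 with Hsp27, 25 with Hsp26 and 5 with Hsp68.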

How the data were processed

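The authors deposited 1 table of 17457 features with TPM per sample, per the file headers, and reads were aligned with STAR, per the submitters' processing notes. The counting method, genome build and annotation are not given in the sources used here. The deposited table also holds the authors' comparison as log2 fold change, log2 CPM, p-value and FDR, per the file headers; its tool is not given. TPM columns were matched to samples by the labels, with 0 columns left over.

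Values were tested as log2(TPM + 1) with limma 3.58.1 (lmFit, eBayes with trend, R 4.3.3), with group as the only term, over the 7855 features whose TPM averaged 1 or more across the 6 samples. The two-sided p-values were Benjamini-Hochberg adjusted over all of these, and an adjusted p under 0.05 was called. Fold changes on this scale understate those of low genes. TPM holds no depth, so counting error is unknown and no detection limit was computed. The fit was tested on simulated data. Exact permutation tests used scipy 1.17.1 on the 2 values outside the fit.

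The heat shock genes and the gene and marker lists were chosen with earlier results of these data known. Named genes were all 8 heat shock genes, and in each other list the called genes and the 2 with the highest mean TPM; others named were chosen after their values were seen. In the labels, batch and replicate numbers coincide, so same-numbered samples are paired by batch. Deviations of same-numbered samples correlated with r of -0.06, -0.06 and 0.21 across genes. Between differently numbered samples r ran from -0.23 to 0.26, so these values do not set same-numbered pairs apart. Of 17257 gene IDs matched to the BDGP6.54 annotation, 17125 had the same coordinates. At most 0.382% of tested features had equal values in any pair of libraries.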

Additional observations from a re-analysis of the deposited data

How the results depend on the processing

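Under all 14 alternatives 0 heat shock genes were called by limma, with 0 to 2 at an unadjusted p under 0.05, and HIP and HIP-R stayed the 2 called genes of the other lists. With the batch number as a replicate block, 0 heat shock genes and 16 features overall were called, and no call in these lists changed. The count of all changed features was 13 when low values were kept and ran from 11 to 27 when 1 sample was left out, with 11 without control replicate 1 and 14 without control replicate 3. Leaving out 1 sample changed the sign of Hsp22, Hsp23 and Hsp68, none of them called, and not that of Hsf, Hsp26 or Hsp27. Hsp67Bc kept its sign in the fits that held it. It fell under the minimum without control replicate 3 or without overexpression replicate 1, its highest libraries, so its sign there was not estimated. Leaving out 1 sample moved the log2 fold change of Hsp22 between -0.28 and 0.19 and of Hsp23 between -0.0941 and 0.54. That of Hsp68 moved between -0.94 and 0.83, that of Hsf between -0.14 and -0.02 and that of Hsp67Bc, where fitted, between 0.12 and 0.65. Without both control replicate 3 and overexpression replicate 1, Hsp22 was at 0.0335 and Hsf at 0.0307. Hsp26 stayed between -0.26 and -0.15 and Hsp27 between -0.22 and -0.05, with adjusted p from 0.161 and from 0.368 upwards. Hsp67Bc was not tested in 4 of the alternatives, where its mean fell under the minimum. Their cause was not tested, and without depth the noise of Hsp67Ba and Hsp67Bc cannot be set against counting error.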

Other observations

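The genes named here were chosen after their values were seen, and none passed the adjusted threshold in limma. Hsromega, a noncoding RNA gene known for strong induction by heat, was at 31.6, 35.1 and 33.3 TPM in control replicates 1, 2 and 3 and at 38.9, 39.5 and 43.7 TPM in overexpression replicates 1, 2 and 3. It differed between the groups by 0.28 on the log2 scale (limma, adjusted p = 0.368), and unlike Hsp68 it was highest in overexpression replicates 2 and 3. Gadd45, a stress response gene, was at 3.25, 5.25 and 3.33 TPM in control replicates 1, 2 and 3 and at 9.07, 5.32 and 6.90 TPM in overexpression replicates 1, 2 and 3 (log2 fold change 0.71, limma adjusted p = 0.509). The co-chaperone gene stv, whose product Starvin partners Hsp67Bc, had its highest values in control replicate 3 (3.86 TPM) and overexpression replicate 1 (4.18 TPM), within 1.38 times the next highest library of the same group.

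The rows snoRNA:Me28S-U3344b and snoRNA:Psi18S-1377c, which were high in the same libraries as Hsp68, are short noncoding features outside what a polyA library is made to capture. The first was listed at 0 in the other 4 libraries and stood at 12.1 and 12.9 TPM in control replicate 3 and overexpression replicate 1.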
